A study of Mus musculus with 17 samples.

Results

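The genes described are 35 mouse genes of fatty acid synthesis, desaturation, elongation and activation and of phosphatidylcholine and triglyceride synthesis. They were chosen by name, and each was found as 1 of the 43430 Ensembl gene rows of both count tables. All 17 libraries came from alveolar epithelial type 2 (AT2) cells, sorted by flow cytometry from C57BL/6J mice aged 2 months. The 4 vehicle and the 4 ISRIB libraries were taken from naive mice 24 h after they received vehicle or ISRIB, a small molecule that restores translation initiation held back by the integrated stress response, and were made from 3 ng of RNA after poly(A) selection. The 4 naive libraries and the 5 bleomycin libraries, the latter taken 14 days after bleomycin, which injures the alveolar epithelium and is used to model lung fibrosis, were made from 0.35 ng with a total-RNA kit. Titles of the vehicle, naive and bleomycin libraries all say saline, and the labels give no genetic change in any group. Doses, routes and the sex of the mice do not appear in the labels. The labels do not say whether each library is a separate mouse. The p-values below therefore set each group difference against the spread between these libraries, which may not be that between mice. Each comparison was made within its kit, and no level is set across kits.

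AT2 cells make pulmonary surfactant, a lipid film rich in phosphatidylcholine with saturated acyl chains. Acetyl-CoA is made from citrate and carboxylated to malonyl-CoA, and fatty acid synthase joins these units into palmitate, which desaturases and elongases then modify. Fatty acids are activated to acyl-CoA and attached to glycerol phosphate, and the diacylglycerol that results is either joined to CDP-choline to give phosphatidylcholine or acylated to triglyceride, which is stored in lipid droplets. The transcription factor SREBP-1, encoded by Srebf1, drives many of the fatty acid genes.

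Poly(A) libraries held 10493574 to 15727139 counts and total-RNA libraries 3295257 to 6333166. Levels are given as CPM, a gene's counts scaled to the same total in every library by effective library size. The 11 AT2 markers were all present, with a summed level of 187700 to 197500 CPM over the 8 poly(A) libraries, 84490 to 91930 CPM in the naive libraries and 52160 to 92270 CPM in the bleomycin libraries. Within the ISRIB group, libraries 2 and 4 stood apart from libraries 1 and 3. The chi-square per degree of freedom between the counts of 2 libraries, which is 1 for counting error alone, was 3.50 for ISRIB 1 and 3 and 4.38 for ISRIB 2 and 4. It was 7.80 to 8.94 for the 4 pairs across these sets, against 3.67 to 5.77 for pairs of vehicle libraries. Among the bleomycin libraries, numbers 1 and 2 had the lowest summed AT2 marker levels, 52160 and 62530 CPM, against 76640 to 92270 CPM in the other 3. The chi-square per degree of freedom was 25.2 for bleomycin 1 and 2, within the 17.7 to 46.2 for pairs of either with one of the other 3. Lower values came from pairs with bleomycin 4 (17.7 and 20.4), the bleomycin library with the fewest counts (3299824). Pairs with bleomycin 3 or 5 gave 28.2 to 46.2, and bleomycin 3 with 5 gave 7.34. This measure grows with depth, so it cannot decide whether bleomycin 1 and 2 stand together. No 2 libraries agreed within counting error.

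The members spanned a wide range of abundance. Levels can be compared between genes only per length, here as CPM per kilobase of merged exon. On that scale Scd1, the stearoyl-CoA desaturase that makes monounsaturated acyl chains, was the most abundant member in the vehicle libraries at 5589 ± 497 (SD, n = 4). It was followed by Lpcat1, the acyltransferase that makes disaturated phosphatidylcholine from its lyso form, at 781 ± 42.97, Fasn, fatty acid synthase, at 608 ± 21.8, and Elovl1, an elongase of saturated chains, at 585 ± 74.1. The SD ranges of Fasn and Elovl1 overlapped, while those of Scd1, Lpcat1 and Fasn did not. Scd2 followed at 368 ± 20.1. In the naive total-RNA libraries the same 5 genes led in the same order, with Scd1 at 3026 ± 752 and Lpcat1 at 362 ± 17.5 CPM per kilobase (SD, n = 4), though the SD ranges of Fasn, Elovl1 and Scd2 overlapped there. At the other end, Elovl6, an elongase of palmitate, and Pcyt1b, a paralogue of Pcyt1a, had at most 7 and 9 counts in any poly(A) library and did not pass the filter on low counts in either comparison. Pemt, which makes phosphatidylcholine by methylation, and Dgat2, which makes triglyceride, passed it in the poly(A) libraries alone, at mean levels of 1.16 and 1.37 CPM after vehicle.

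Together the 35 members took 4.54% to 5.10% of effective library size in the vehicle libraries and 3.94% to 4.30% in the ISRIB libraries. These percentages are not exact shares of a library's counts, since the scaling factor ran from 0.9113 in naive 1 to 1.076 in bleomycin 5. Scd1 alone accounted for 2.48% to 3.03% and 2.03% to 2.32%. Without Scd1, the other members took 2.06% to 2.21% and 1.90% to 2.04%. In the total-RNA libraries the members took 2.28% to 3.25% in naive and 2.61% to 3.71% in bleomycin, of which Scd1 made up 1.19% to 2.00% and 1.56% to 2.52%. The summed level did not overlap between vehicle and ISRIB, and it overlapped between naive and bleomycin.

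**Figure D1:**
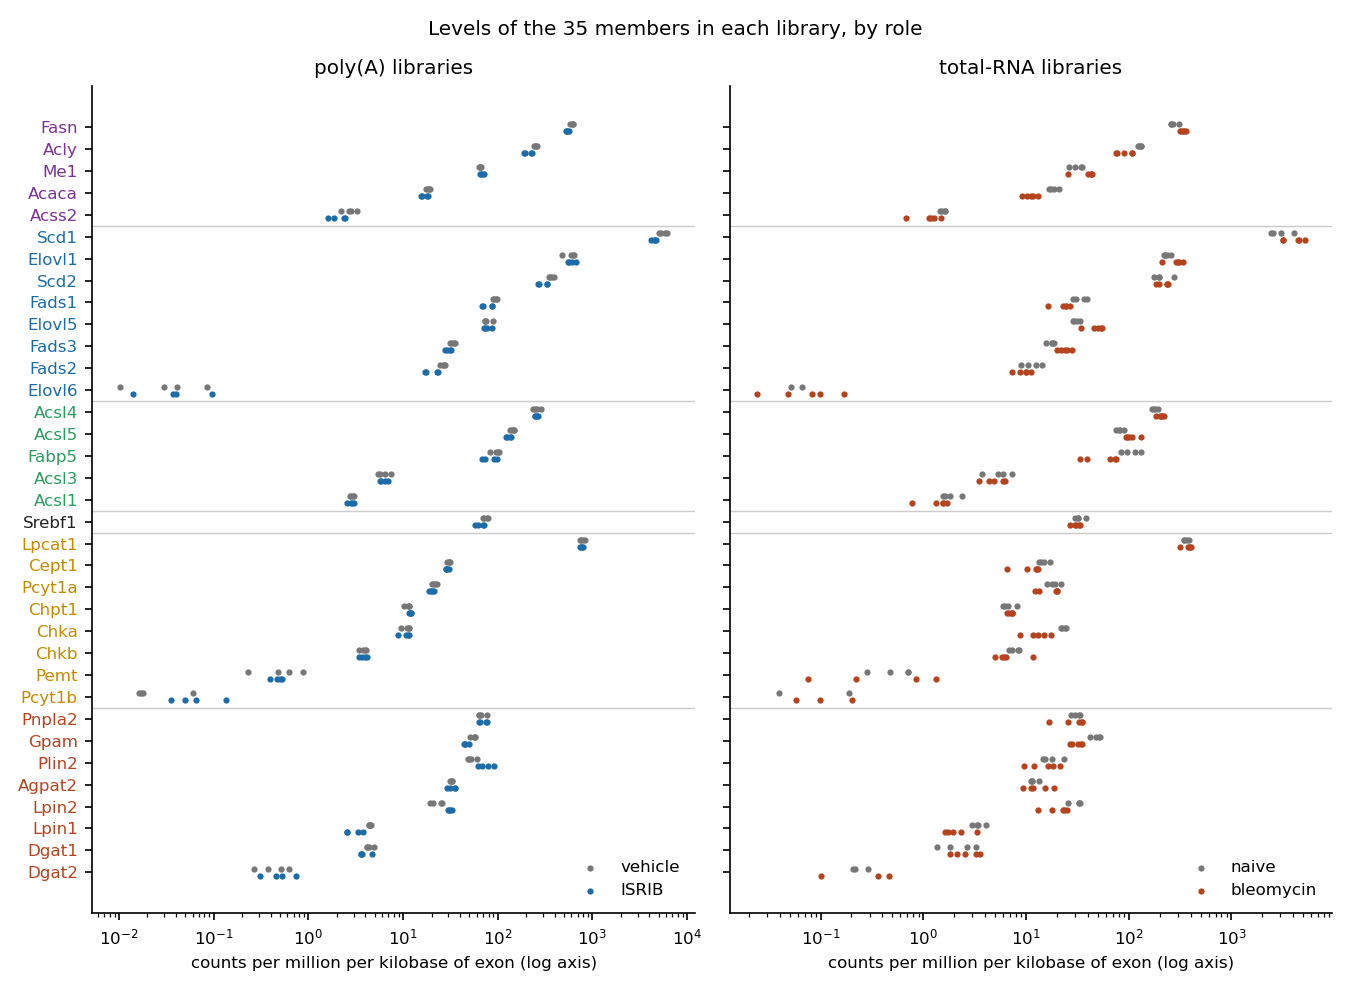
Level of each of the 35 members in each library, as CPM per kilobase of merged exon on a log axis, for the poly(A) libraries (left) and the total-RNA libraries (right). Points are libraries, names are coloured and ruled off by role, and libraries with a count of 0 are not drawn. Scd1 lies above every other member in all 17 libraries.

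The first comparison asked how these genes stood in naive mice 24 h after ISRIB. Of the 33 members tested, 8 were called (24.2%) at an adjusted p under 0.05 by edgeR's quasi-likelihood test, against 2.20% of all 12054 genes tested. Scd1, Scd2, Fads2, Acly, Gpam and Lpin1 fell, and Lpin2 and Plin2 rose. Acly fell by 16.4%, Scd1 by 19.7% and Lpin1 by 30.4%, and the rises were 38.5% for Lpin2 and 42.0% for Plin2. The 6 members called lower compare with 1.10% of all genes, and the 2 called higher with 1.10% as well. Fitted differences were negative for 24 members and positive for 9, with a median log2 fold change of -0.11, while that of all genes tested was 0.00. In bulk libraries such as these, fewer cells of a type and less RNA per cell cannot be told apart. Groups did not overlap for 11 members (33.3%), against 8.65% of all genes.

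These counts depend on single libraries. Without vehicle 2, 1 member was called (Lpin2) and 102 genes in all, and without vehicle 1, 4 members and 86 genes. Without vehicle 3, vehicle 4, ISRIB 2 or ISRIB 4, 5 members were called each time, beside 211, 243, 209 and 159 genes in all, where the full set gave 265. ISRIB 2 and 4 were both below ISRIB 1 and 3 for 17 of the 33 members (51.5%), against 21.6% of all genes, and for 5 of the 6 called lower (Acly, Fads2, Gpam, Lpin1 and Scd2). Both lay above ISRIB 1 and 3 for 7 members (21.2%), Plin2 and Lpin2 among them, which is near the 21.6% of all genes. Leaving out ISRIB 2 and 4, an alternative added after the data were seen, left 2 members called, Lpin2 and Scd1, and 151 genes in all. Leaving out ISRIB 1 and 3 instead gave 478 genes in all and 14 members, the 8 above with Acaca, Acsl5, Acss2, Fabp5, Fads1 and Srebf1. No direction of the 8 called members changed under any of the 16 alternatives run.

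**Figure D2:**
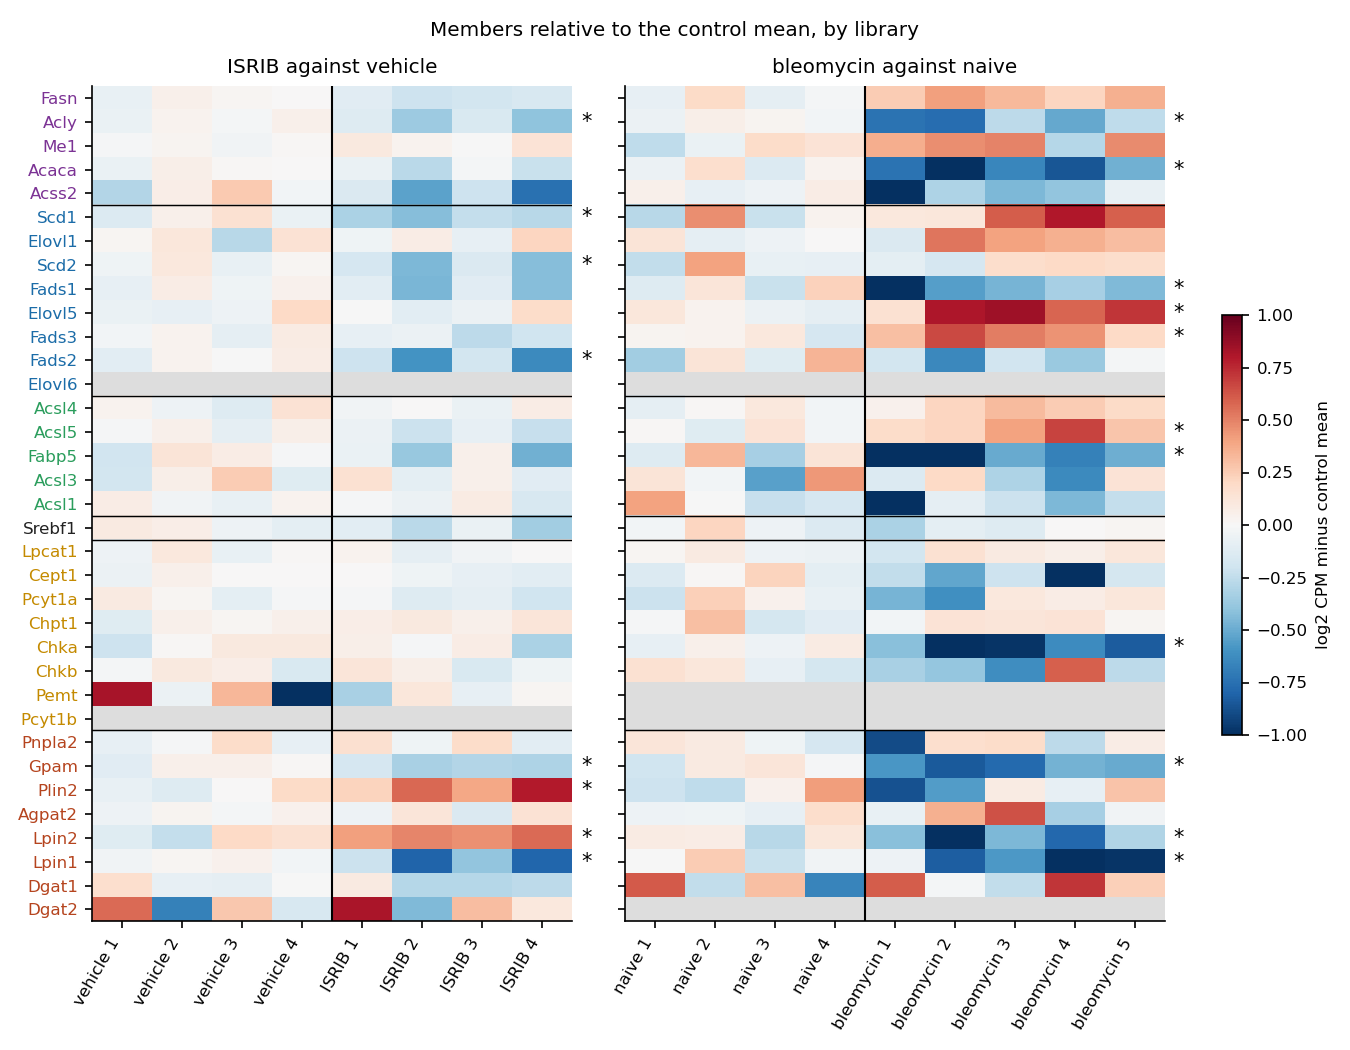
Log2 CPM of each member minus the mean log2 CPM of the control libraries (vehicle, left, and naive, right), 1 column a library, with the colour scale ending at -1 and 1. Rows are ordered by role, grey rows were not tested, and asterisks mark members called by edgeR's quasi-likelihood test. After ISRIB, the darkest blue of Acly, Scd2, Fads1, Fads2 and Lpin1 is in ISRIB 2 and 4.

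Of the 5 genes of fatty acid synthesis itself, 1 fell and none rose (20.0% called, against 2.20% of all genes). Acly, the ATP citrate lyase that makes cytosolic acetyl-CoA from citrate, stood at 1261, 1352, 1299.6 and 1363 CPM in vehicle 1 to 4 and at 1204, 1026, 1187 and 995 CPM in ISRIB 1 to 4. All 4 ISRIB libraries were below all 4 vehicle libraries, and libraries 2 and 4 were the lowest. The log2 fold change was -0.26 ± 0.064 (SE), with an adjusted p of 0.043 by edgeR, and the call was lost in 8 of 16 alternatives. Fasn, which joins acetyl and malonyl units into palmitate, stood at 6325, 6883, 6752 and 6679 CPM in vehicle 1 to 4 and at 6140.4, 5774, 5876 and 5962 CPM in ISRIB 1 to 4. Its groups did not overlap either, but the adjusted p was 0.0996 for a log2 fold change of -0.17 ± 0.050, so it was not called, and of the 16 alternatives DESeq2 alone called it. Acaca, the carboxylase that makes malonyl-CoA, stood at 302, 330.04, 319 and 317 CPM in vehicle 1 to 4 and at 302, 263, 312 and 272 CPM in ISRIB 1 to 4, with ISRIB 1 and 3 inside the vehicle range and ISRIB 2 and 4 below it. Its log2 fold change was -0.14 ± 0.059 (adjusted p 0.245, edgeR). Acss2, which makes acetyl-CoA from acetate, had a log2 fold change of -0.40 ± 0.13 and Me1, the malic enzyme that supplies NADPH, one of 0.066 ± 0.050, neither of them called.

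Among the 7 desaturases and elongases tested, 3 fell and none rose (42.9% called, against 2.20% of all genes), with a median log2 fold change of -0.27. Scd1 stood at 24844, 28238, 30309.7 and 25977 CPM in vehicle 1 to 4 and at 21892, 20321, 23169 and 22461 CPM in ISRIB 1 to 4. The 4 ISRIB libraries all lay below the lowest vehicle library, and here ISRIB 2 and 4 did not stand apart together. Its mean fell from 27342 ± 2430 to 21961 ± 1211 CPM (SD, n = 4 each). The log2 fold change was -0.32 ± 0.065 with an adjusted p of 0.0176 by edgeR, which was lost without vehicle 2 or without vehicle 3. Scd2, its paralogue, stood at 1945, 2154, 1906 and 2033 CPM in vehicle 1 to 4 and at 1790.03, 1469, 1811 and 1494 CPM in ISRIB 1 to 4. Groups were again separate, and the log2 fold change was -0.29 ± 0.071 (adjusted p 0.0386, edgeR), called in 9 of 16 alternatives. Fads2, a front-end desaturase of polyunsaturated chains, stood at 80.9, 89, 86.7 and 91.8 CPM in vehicle 1 to 4 and at 75.3, 57.6, 76.7 and 55.9 CPM in ISRIB 1 to 4. ISRIB 2 and 4 were well below the other libraries, and the log2 fold change of -0.39 ± 0.091 (adjusted p 0.0319, edgeR) became -0.19 (adjusted p 0.207) without them. Fads1, which acts after Fads2 in the same route, also had separate groups, with a log2 fold change of -0.27 ± 0.076 and an adjusted p of 0.081. The third gene of that cluster, Fads3, had a log2 fold change of -0.15 ± 0.059 with overlapping groups, and Elovl5, an elongase of polyunsaturated chains, one of 0.003 ± 0.072.

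The phosphatidylcholine genes showed no call among the 7 tested, with a median log2 fold change of -0.046. Only 2.20% of all genes were called, so no call among 7 is near that share. Lpcat1 stood at 3493, 3883, 3439 and 3651 CPM in vehicle 1 to 4 and at 3695, 3397, 3517 and 3631 CPM in ISRIB 1 to 4, with overlapping groups and a log2 fold change of -0.023 ± 0.054 (adjusted p 0.895, edgeR). Pcyt1a, the enzyme that makes CDP-choline and sets the pace of that route, stood at 170.1, 161, 149 and 158 CPM in vehicle 1 to 4 and at 158, 146, 150.2 and 139 CPM in ISRIB 1 to 4. ISRIB 2 and 4 lay below the vehicle range, and the log2 fold change was -0.11 ± 0.057 (adjusted p 0.385, edgeR). Chpt1, the cholinephosphotransferase of the last step, stood at 86.1, 96.8, 94.8 and 96.8 CPM in vehicle 1 to 4 and at 98.01, 100.2, 97.05 and 102 CPM in ISRIB 1 to 4. Every ISRIB library was above every vehicle library, but the difference was 0.084 ± 0.054 on the log2 scale and was not called (adjusted p 0.484). Chka and Chkb, the choline kinases, had log2 fold changes of -0.046 and -0.002, and Cept1, a second transferase of the last step, -0.057.

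None of the 5 activation and binding genes was called, which is near the 2.20% of all genes called. All 5 fitted differences were negative, from -0.21 to -0.010. Fabp5, a fatty acid binding protein, stood at 298, 372, 359 and 338 CPM in vehicle 1 to 4 and at 326, 261, 353 and 245 CPM in ISRIB 1 to 4. ISRIB 2 and 4 were the lowest of the 8, while ISRIB 1 and 3 lay inside the vehicle range, and the log2 fold change was -0.21 ± 0.097 (adjusted p 0.304, edgeR). The 4 acyl-CoA synthetases ran from -0.15 for Acsl5 to -0.010 for Acsl4, on the log2 scale. Srebf1 stood at 446, 437, 403 and 390.3 CPM in vehicle 1 to 4 and at 389.7, 346, 399.6 and 328 CPM in ISRIB 1 to 4. Its lowest 2 libraries were again ISRIB 2 and 4, and the log2 fold change was -0.20 ± 0.066 (adjusted p 0.146, edgeR).

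The glycerolipid and triglyceride genes changed in both directions, with 2 of 8 called lower and 2 of 8 called higher. Across all genes tested, 1.10% were called lower and 1.10% higher, 2.20% in either direction. Gpam, the mitochondrial acyltransferase that puts the first acyl chain on glycerol phosphate, stood at 344, 385, 385 and 376 CPM in vehicle 1 to 4 and at 331, 296, 303 and 300.1 CPM in ISRIB 1 to 4. Groups did not overlap, with a log2 fold change of -0.28 ± 0.055 and an adjusted p of 0.0147 by edgeR, called in 14 of 16 alternatives. The phosphatidate phosphatases Lpin1 and Lpin2, which make diacylglycerol, moved apart. Lpin1 stood at 41.8, 43.5, 44.1 and 42.01 CPM in vehicle 1 to 4 and at 36.8, 24.6, 32.6 and 24.7 CPM in ISRIB 1 to 4. ISRIB 2 and 4 were lowest, and the log2 fold change of -0.52 ± 0.11 (adjusted p 0.0166, edgeR) became -0.30 (adjusted p 0.0941) without them and -0.80 (adjusted p 0.00012) without ISRIB 1 and 3. Lpin2 stood at 253, 234, 316 and 306 CPM in vehicle 1 to 4 and at 365, 387, 378 and 407 CPM in ISRIB 1 to 4. All 4 ISRIB libraries exceeded the vehicle libraries, and the log2 fold change of 0.47 ± 0.080 (adjusted p 0.00671, edgeR) was called in 16 of 16 alternatives.

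Plin2, the coat protein of lipid droplets, stood at 176, 169, 185 and 211 CPM in vehicle 1 to 4 and at 216, 275, 242 and 320.2 CPM in ISRIB 1 to 4. The lowest ISRIB library was just above the highest vehicle library, and ISRIB 4 was the highest of all. Its log2 fold change was 0.51 ± 0.097 with an adjusted p of 0.0131 by edgeR, lost without vehicle 1, without vehicle 2 and without ISRIB 2 and 4 together. Pnpla2, the lipase that opens triglyceride breakdown, stood at 193, 203, 232 and 193 CPM in vehicle 1 to 4 and at 228, 198, 232 and 190.2 CPM in ISRIB 1 to 4. Its groups covered nearly the same range, with a log2 fold change of 0.048 ± 0.073 (adjusted p 0.822, edgeR). Agpat2, which adds the second acyl chain, Dgat1 and Dgat2 were not called, at 0.024, -0.17 and 0.20 on the log2 scale.

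**Figure D3:**
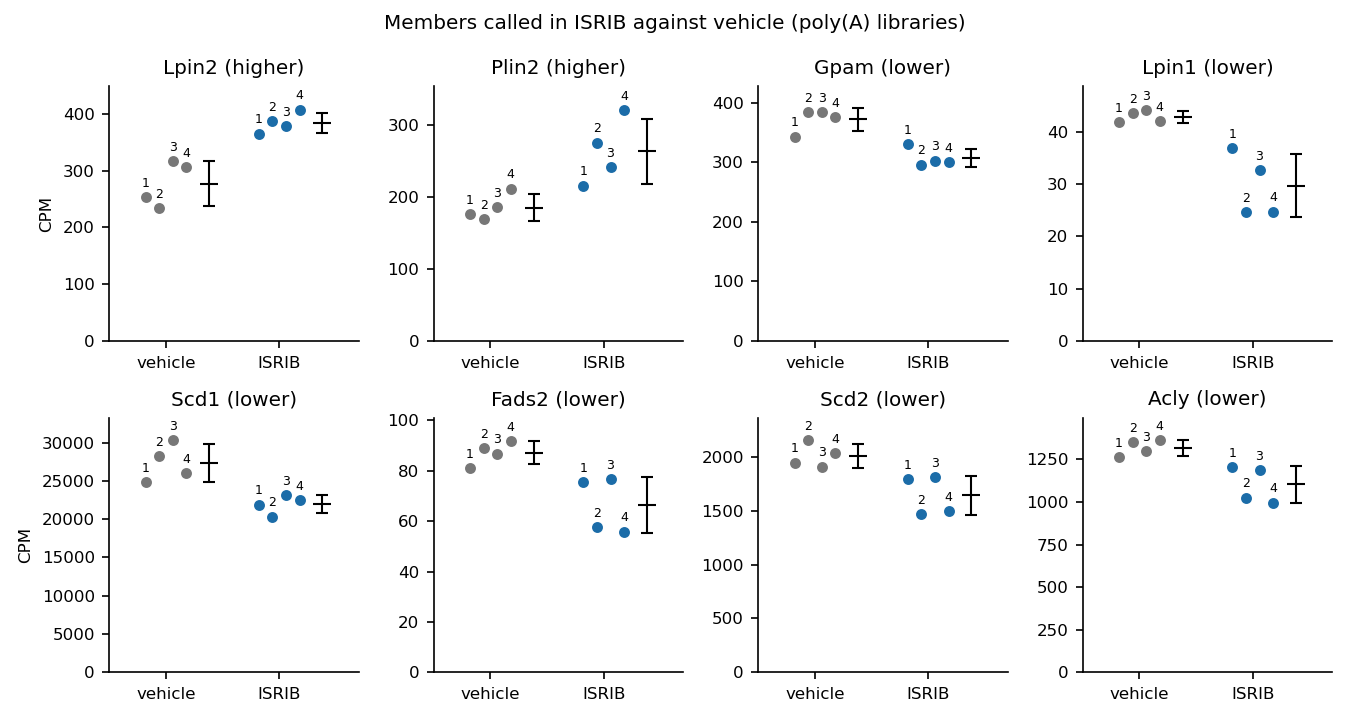
CPM of the 8 members called in ISRIB against vehicle, lowest p first, each axis starting at 0. Points are libraries with their replicate numbers, and bars show the mean ± SD (n = 4 a group). No vehicle point overlaps the ISRIB points in any of the 8 plots.

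Plin2 is also 1 of 6 genes on a list of lipofibroblast markers, whose summed level was 442 to 550 CPM after vehicle and 489 to 602 CPM after ISRIB. Of the 4 markers of that list that were tested, Plin2 was the only one called. The 10 fibroblast markers summed to 19.3 to 27.4 CPM after vehicle and 13.9 to 26.4 CPM after ISRIB. The 19 macrophage markers, of which C1qa and C1qc were at 0 in all 8 libraries, summed to 210 to 254 CPM and 218 to 233 CPM. The 10 airway markers ran from 3841 to 4303 CPM after vehicle and were lowest in ISRIB 2 and 4, at 3301 and 2380 CPM, against 4179 and 4044 CPM in ISRIB 1 and 3. The 10 transitional epithelial markers summed to 565 to 673 CPM after vehicle and 479 to 577 CPM after ISRIB, with Hbegf and Krt19 called lower. ISRIB 2 and 4 were above ISRIB 1 and 3 in that sum (547 and 577 against 479 and 495 CPM). They were also above in the lipofibroblast sum (558 and 602 against 489 and 529 CPM). That second sum includes Plin2 itself, at 275 and 320 CPM in ISRIB 2 and 4 and 216 and 242 CPM in ISRIB 1 and 3. It is therefore not a reading separate from Plin2. Among the 11 AT2 markers Etv5 was called lower, and Chil3 of the macrophage list and Mcm6 of the proliferation list were too. The part of any of these cells in the results was not tested.

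The second comparison asked how the same genes stood 14 days after bleomycin. Of the 31 members tested, 11 were called (35.5%) by edgeR's quasi-likelihood test, against 20.5% of all 11223 genes tested. Acaca, Gpam, Chka, Fabp5, Fads1, Acly, Lpin2 and Lpin1 were lower, of which Acly fell by 28.7%, Acaca fell by 40.1% and Fabp5 fell by 46.0%. Elovl5 rose by 56.0%, Fads3 by 34.9% and Acsl5 by 28.4%. The 8 called lower are 25.8% of the members tested, where 9.31% of all genes were called lower, and the 3 called higher compare with 11.2% of all genes. The median log2 fold change of the members was -0.14 and that of all genes 0.003. Groups did not overlap for 12 members (38.7%), against 19.7% of all genes.

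Beside these calls, markers of other cell states moved with the group. All 10 transitional epithelial markers were called higher, and their summed level was 412 to 483 CPM in naive and 867 to 1163 CPM in bleomycin libraries. Of 9 alveolar type 1 markers tested, 7 were called higher, with sums of 1289 to 1520 and 1988 to 2684 CPM. The 6 proliferation genes summed to 33.7 to 77.6 and 279 to 464 CPM, and the 10 fibroblast markers, with Lum at 0 throughout and all 3 tested called higher, to 4.47 to 12.1 and 18.1 to 117 CPM. The fibroblast sum was 55.8 and 117 CPM in bleomycin 1 and 2 and 18.1 to 26.9 CPM in the other 3. Bleomycin 1 and 2 were both below the other 3 for 8 of the 31 members (25.8%), against 11.7% of all genes. These were Acly, Acsl5, Fabp5, Fads1, Pcyt1a, Plin2, Scd1 and Scd2. Both lay above the other 3 for 0 members, against 11.5% of all genes. The 8 endothelial markers summed to 22.4 to 31.2 and 25.1 to 81.9 CPM, and the 6 lipofibroblast markers to 238 to 274 and 282 to 432 CPM. The lipofibroblast markers went both ways, with Npnt called higher, Lpl called lower and a median log2 fold change of -0.46 over the 4 tested. Of 8 airway markers tested, Foxj1, Dnah5 and Ccdc153 were called higher, with a median log2 fold change of 1.27 over the list and overlapping sums of 452 to 925 and 508 to 1008 CPM. Macrophage markers, with Marco and C1qa at 0, summed to 94.9 to 121 and 79.9 to 115 CPM. Of the 11 AT2 markers, Sftpd and Napsa were called higher and Etv5 and Lyz1 lower. Genes with at least 1 count numbered 17108 to 19763 in naive and 13940 to 17112 in bleomycin libraries, and reads of ribosomal-RNA-like genes made up 20.4% to 29.5% and 15.8% to 23.1%. The part of these shifts in the members' differences was not tested. Without bleomycin 1 and 2, an alternative added after the data were seen, all 11 members were still called, with Elovl1, Fasn and Scd1 added, and the median over the members became 0.017.

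Of the 5 fatty acid synthesis genes, 2 fell after bleomycin and none was called higher (40.0% called, against 20.5% of all genes). Acaca stood at 302, 354, 286 and 322 CPM in naive 1 to 4 and at 189, 156, 200.2, 175 and 226 CPM in bleomycin 1 to 5. Every bleomycin library was below every naive library. The mean fell from 316 ± 29.4 to 189 ± 26.2 CPM (SD, n = 4 and 5), and the log2 fold change was -0.74 ± 0.12 with an adjusted p of 0.000287 by edgeR, the lowest p of any member in this comparison. Acly stood at 646, 703, 688 and 660.2 CPM in naive 1 to 4 and at 405, 397, 563, 473 and 566 CPM in bleomycin 1 to 5. The groups were separate, bleomycin 1 and 2 were lowest, and the log2 fold change was -0.49 ± 0.13 (adjusted p 0.0103, edgeR). Fasn, the enzyme downstream of both, stood at 2808, 3389.97, 2803 and 2939.7 CPM in naive 1 to 4 and at 3555, 3961, 3723, 3457 and 3811 CPM in bleomycin 1 to 5. All 5 bleomycin libraries lay above the 4 naive ones, although the difference of 0.31 ± 0.12 on the log2 scale was not called by edgeR (adjusted p 0.0707). It was called by DESeq2 (adjusted p 0.00533), by limma-voom (adjusted p 0.0235), without bleomycin 1 and without bleomycin 1 and 2 together, of 16 alternatives. The within-library log2 ratio of Fasn to Acaca was 3.19 to 3.29 in naive and 4.08 to 4.66 in bleomycin libraries. Me1 was at 0.32 ± 0.15 and Acss2 at -0.43 ± 0.23 on the log2 scale, neither called.

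Desaturases and elongases held 2 of the 3 rises and 1 fall, so 42.9% of the 7 tested were called, against 20.5% of all genes. Elovl5 stood at 118, 112, 104 and 102 CPM in naive 1 to 4 and at 121, 190.02, 196, 163 and 179 CPM in bleomycin 1 to 5. Bleomycin 1 was barely above the naive range and the other 4 were far above it, for a log2 fold change of 0.64 ± 0.13 (adjusted p 0.00246, edgeR), called in 16 of 16 alternatives. Fads3, a desaturase of the Fads cluster, stood at 68.1, 68.6, 71.8 and 59.6 CPM in naive 1 to 4 and at 82.5, 106, 95.4, 91.3 and 76.8 CPM in bleomycin 1 to 5. The groups did not overlap, and the log2 fold change was 0.43 ± 0.12 (adjusted p 0.0183, edgeR), lost without naive 1 or naive 4. Fads1 stood at 148, 176, 139 and 190.2 CPM in naive 1 to 4 and at 78.3, 111, 118, 129 and 119 CPM in bleomycin 1 to 5. It moved the other way, with every bleomycin library below every naive one and a log2 fold change of -0.56 ± 0.14 (adjusted p 0.00839, edgeR). Scd1 stood at 11924, 19971, 12438 and 14872 CPM in naive 1 to 4 and at 15562, 15633, 22093, 25224 and 21943 CPM in bleomycin 1 to 5. The groups overlapped through naive 2, the highest naive library, and the log2 fold change of 0.44 ± 0.18 was not called (adjusted p 0.0992, edgeR). Scd1 was called in 5 of 16 alternatives, namely DESeq2, no filter on low counts, without naive 2, without bleomycin 1 and without bleomycin 1 and 2 together. Scd2 stood at 962, 1508, 1086 and 1080.1 CPM in naive 1 to 4 and at 1068, 1017, 1289, 1313 and 1289.7 CPM in bleomycin 1 to 5, again highest in naive 2, with a log2 fold change of 0.044 ± 0.14 (adjusted p 0.857). Elovl1 at 0.31 ± 0.13 and Fads2 at -0.29 ± 0.17 on the log2 scale were not called.

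Of the 5 activation and binding genes, Fabp5 fell and Acsl5 rose (40.0% called, against 20.5% of all genes). Fabp5 stood at 344, 472, 298 and 410.1 CPM in naive 1 to 4 and at 119.8, 139, 265, 235 and 268 CPM in bleomycin 1 to 5. Bleomycin 1 and 2 were lowest, all 5 lay below the naive libraries, and the log2 fold change of -0.89 ± 0.21 (adjusted p 0.00517, edgeR) became -0.57 (adjusted p 0.00544) without those 2 libraries, a smaller fall that was still called. Acsl5, an acyl-CoA synthetase, stood at 404, 369, 439.6 and 392 CPM in naive 1 to 4 and at 455, 464, 529, 641 and 486 CPM in bleomycin 1 to 5. The groups were separate, with a log2 fold change of 0.36 ± 0.12 and an adjusted p of 0.043 by edgeR, called in 9 of 16 alternatives. Of its merged exon bases, 8.31% overlap Zdhhc6 on the other strand, and no label says whether reads were counted by strand. The other synthetases, Acsl1, Acsl3 and Acsl4, had log2 fold changes of -0.40, -0.15 and 0.21, none called. Srebf1 stood at 182, 216, 179.6 and 169 CPM in naive 1 to 4 and at 149.7, 174, 170.3, 187 and 189 CPM in bleomycin 1 to 5. The groups overlapped, and the log2 fold change was -0.10 ± 0.11 (adjusted p 0.569, edgeR).

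In the phosphatidylcholine route 1 of 6 tested genes fell (16.7%) and none was called higher. Of all genes, 20.5% were called in either direction and 9.31% were called lower. Chka, a choline kinase, stood at 265, 290.2, 271 and 298 CPM in naive 1 to 4 and at 211, 105, 142, 182 and 158 CPM in bleomycin 1 to 5. All bleomycin libraries were below all naive libraries, and the mean fell from 281 ± 15.5 to 159.6 ± 39.8 CPM (SD, n = 4 and 5). The log2 fold change was -0.82 ± 0.15 with an adjusted p of 0.000874 by edgeR. Pcyt1a stood at 119, 163, 142 and 131 CPM in naive 1 to 4 and at 99.99, 90.05, 149, 145 and 149 CPM in bleomycin 1 to 5. Bleomycin 1 and 2 were low and the other 3 lay inside the naive range, for a log2 fold change of -0.14 ± 0.16 (adjusted p 0.588). Chpt1 stood at 55.3, 68.8, 49.2 and 51.6 CPM in naive 1 to 4 and at 54.8, 61.2, 60.5, 61.3 and 56.5 CPM in bleomycin 1 to 5, the latter all inside the naive range, with a log2 fold change of 0.061 ± 0.13. Lpcat1 stood at 1694, 1783, 1616 and 1610.4 CPM in naive 1 to 4 and at 1472, 1864, 1783, 1746 and 1815 CPM in bleomycin 1 to 5. Its difference of 0.051 ± 0.12 on the log2 scale was well inside the spread between libraries (adjusted p 0.799, edgeR). Cept1 was lower in every bleomycin library, at -0.42 ± 0.18 on the log2 scale, but was not called (adjusted p 0.105), and 24.9% of its exon bases overlap Dennd2d or Dram2 on the other strand. Chkb was at -0.16 ± 0.22.

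Among the 7 glycerolipid and triglyceride genes tested, 3 fell and none rose (42.9% called, against 20.5% of all genes). Gpam stood at 281, 344, 350.4 and 320.4 CPM in naive 1 to 4 and at 215, 179.9, 188, 232 and 227 CPM in bleomycin 1 to 5. The groups were separate and the mean fell from 324 ± 31.2 to 209 ± 23.4 CPM (SD, n = 4 and 5), with a log2 fold change of -0.64 ± 0.12 (adjusted p 0.000763, edgeR). Lpin2 stood at 404, 401, 315 and 413 CPM in naive 1 to 4 and at 285, 161, 279, 221 and 309.6 CPM in bleomycin 1 to 5. Naive 3 was the lowest naive library and still above all bleomycin libraries, and the log2 fold change was -0.61 ± 0.16 (adjusted p 0.0105, edgeR). Lpin1 stood at 33.2, 39.5, 28.5 and 32.5 CPM in naive 1 to 4 and at 32.01, 18.8, 22.3, 15.8 and 16.8 CPM in bleomycin 1 to 5. Here the groups overlapped through bleomycin 1, with a log2 fold change of -0.67 ± 0.20 (adjusted p 0.0235, edgeR), called in 12 of 16 alternatives. Plin2 stood at 53.3, 51.5, 63.4 and 82.3 CPM in naive 1 to 4 and at 33.6, 41.9, 65.04, 58.2 and 74.7 CPM in bleomycin 1 to 5. Neither it, at -0.19 ± 0.20 on the log2 scale, nor Pnpla2 was called. Pnpla2 stood at 102, 99.99, 90.98 and 83.5 CPM in naive 1 to 4 and at 50.5, 105, 107, 78.3 and 98.5 CPM in bleomycin 1 to 5, lowest in bleomycin 1, with a log2 fold change of -0.092 ± 0.17. Agpat2 and Dgat1 were at 0.16 and 0.22.

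**Figure D4:**
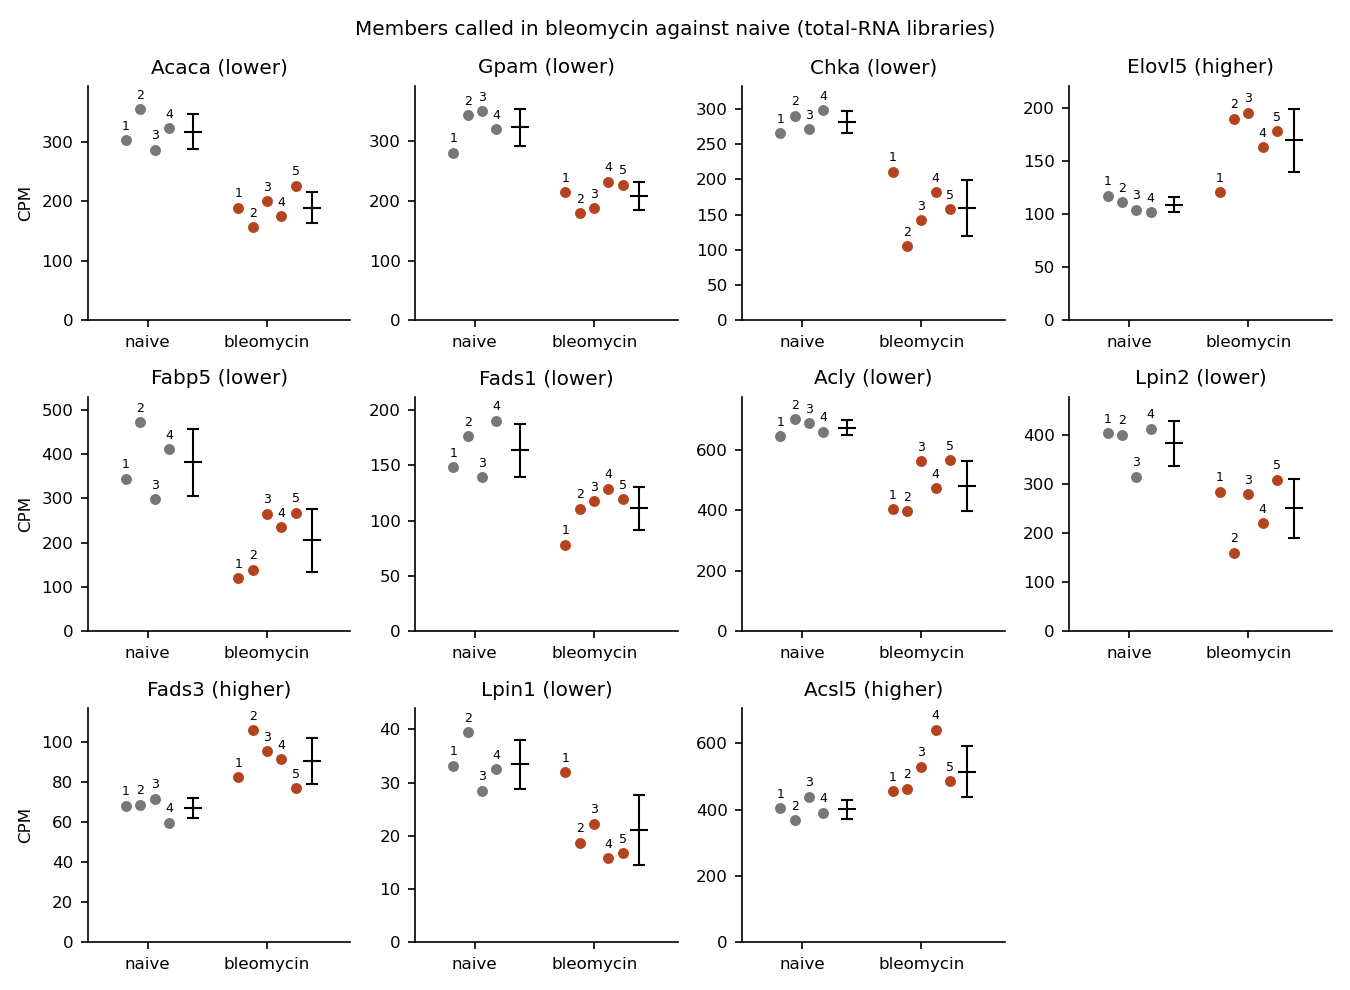
CPM of the 11 members called in bleomycin against naive, lowest p first, each axis starting at 0. Points are libraries with their replicate numbers, and bars show the mean ± SD (n = 4 naive and 5 bleomycin). The groups are separate for every gene shown except Lpin1, where bleomycin 1 lies among the naive libraries.

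Of the 11 calls, 8 (Acaca, Gpam, Chka, Fabp5, Fads1, Acly, Lpin2 and Elovl5) held in 16 of 16 alternatives. Leaving out 1 library at a time gave 8 to 14 called members, and no called member changed direction under any alternative. Lpin1, Fads3 and Acsl5 were lost without naive 1 and without naive 4. Low-abundance members were thinly counted in the total-RNA libraries: Dgat1, the lowest of those tested, had 14 to 49 counts a library and a log2 fold change of 0.22 ± 0.33.

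The comparisons used separate kits and share no library, and each member's values are set side by side. Of the 31 members tested in both, 15 had a lower fitted value in both and 5 a higher one in both. Another 8 were lower after ISRIB and higher after bleomycin, and 3 the other way round. Called in both were 4 members, which are 50% of those called after ISRIB and 36.4% of those called after bleomycin. Of all genes tested, 2.20% were called after ISRIB and 20.5% after bleomycin. The overlap of calls and the split of directions are not given here over all genes. Neither can therefore be read as particular to the members. Acly, Gpam and Lpin1 fell in both, by 0.26, 0.28 and 0.52 on the log2 scale after ISRIB and by 0.49, 0.64 and 0.67 after bleomycin. Lpin2 rose by 0.47 after ISRIB and fell by 0.61 after bleomycin. Scd1 fell by 0.32 after ISRIB and stood at 0.44 after bleomycin without a call. Scd1, Scd2, Fads2 and Plin2 were called after ISRIB alone and Acaca, Chka, Elovl5, Fads1, Fads3, Fabp5 and Acsl5 after bleomycin alone, and whether their responses differ between the kits was not tested. In neither comparison was a call made for 20 of the 35 members, Fasn, Lpcat1, Pcyt1a, Chpt1, Srebf1 and Pnpla2 among them.

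**Figure D5:**
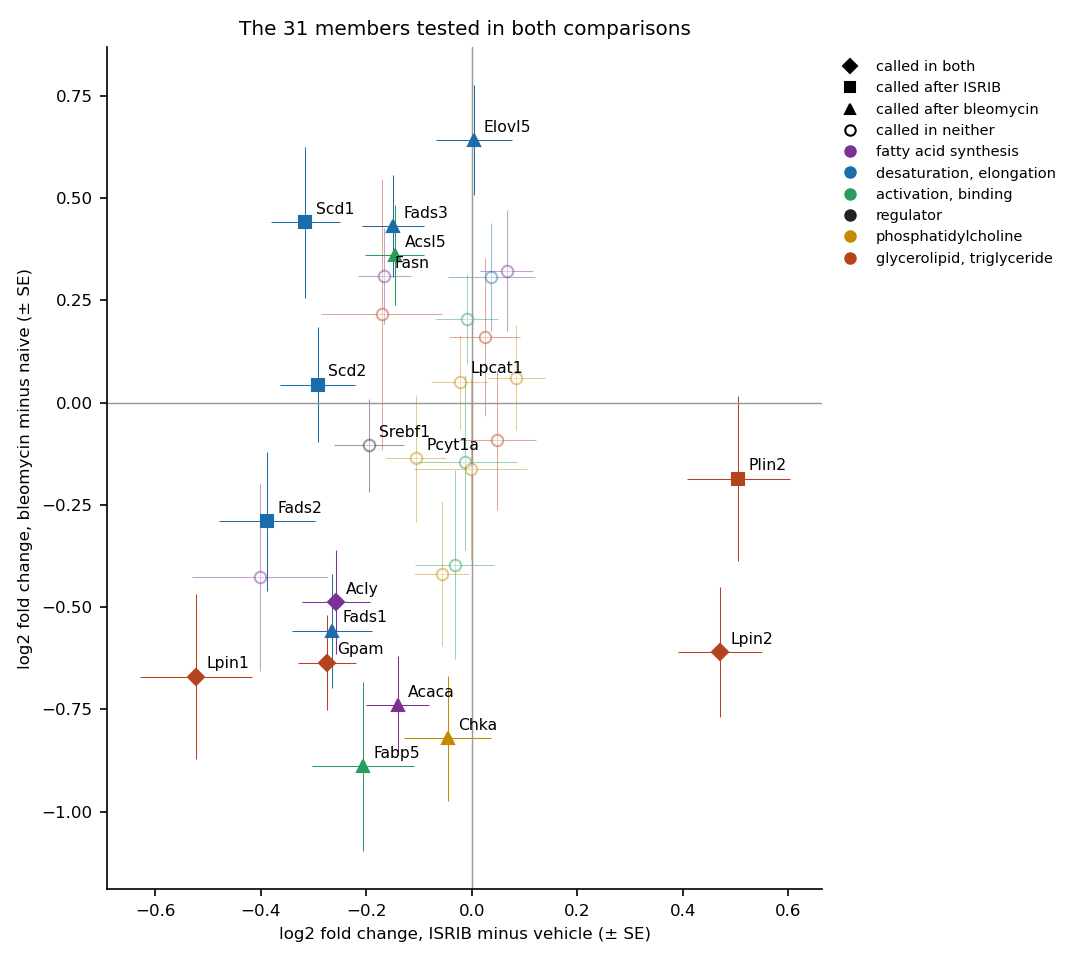
Log2 fold change ± SE of the 31 members tested in both comparisons, ISRIB minus vehicle on the horizontal axis and bleomycin minus naive on the vertical axis, with colours for roles and symbols for calls. Acly, Gpam and Lpin1 lie in the lower left, and Lpin2 in the lower right with 0.47 and -0.61.

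Position offers another view of the members. Mouse chromosome 19 (GRCm38, GENCODE M21) carries 8 of the 35 (22.9%), where 3.48% of the genes tested after ISRIB lie on it. The desaturases Fads3 (chr19:10041569-10060110), Fads2 (chr19:10062765-10101746) and Fads1 (chr19:10182888-10196877) form a cluster, in which Fads2 lies on the minus strand and the others on the plus strand. After bleomycin Fads1 fell and Fads3 rose, and their within-library log2 ratio was 0.95 to 1.67 in naive and -0.080 to 0.63 in bleomycin libraries. Scd2 (chr19:44293674-44306864) and Scd1 (chr19:44394455-44407879) are also neighbours, and their within-library log2 ratio, Scd1 over Scd2, was 3.52 to 3.78 in naive and 3.87 to 4.26 in bleomycin libraries, while it overlapped between vehicle and ISRIB. Gpam (chr19:55067268-55127238, minus strand) and Acsl5 (chr19:55251938-55297720, plus strand) lie close together and went opposite ways after bleomycin, with a log2 ratio of Gpam to Acsl5 of -0.52 to -0.10 in naive and -1.49 to -1.08 in bleomycin libraries. The lipin ratio, Lpin2 over Lpin1, was 2.43 to 2.86 in vehicle and 3.31 to 4.04 in ISRIB libraries, and it overlapped between naive (3.34 to 3.67) and bleomycin (3.10 to 4.21). The Gpam to Acsl5 and Fads1 to Fads3 ratios overlapped between vehicle and ISRIB. These ratios are given as descriptions, without a test.

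Promoter sequence was read for the 4 members with the lowest p among those called after bleomycin that have an entry, to show the start regions of the genes that changed most clearly there. The windows are the 250 bases before a RefSeq transcript start (GRCm38.p6), printed 5′ to 3′ on the gene's strand in lower case. Capitals mark letters of any of 4 searched motifs on either strand, TCACNCCAC (core of the sterol regulatory element that SREBP binds), CACGTG (E-box), CCAAT (bound by NF-Y) and GGGCGG (GC box, bound by SP1). No matches overlap in the windows printed. Acaca, called lower, at chr11:84195188-84195437 on the plus strand, holds no match, and this window lies inside the gene as GENCODE M21 draws it (chr11:84129672-84401651) and overlaps no annotated exon:
Acaca: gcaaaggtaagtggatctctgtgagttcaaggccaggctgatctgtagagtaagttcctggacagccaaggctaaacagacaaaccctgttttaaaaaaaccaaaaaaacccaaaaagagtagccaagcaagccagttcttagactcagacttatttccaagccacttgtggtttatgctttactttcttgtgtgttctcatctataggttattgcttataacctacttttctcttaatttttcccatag
Gpam, called lower, has 2 starts on the minus strand, the upstream window at chr19:55127239-55127488 with 1 match and the downstream one at chr19:55099478-55099727 with 1 match and 131 bases inside an exon of AC110206.1 on the other strand:
Gpam upstream: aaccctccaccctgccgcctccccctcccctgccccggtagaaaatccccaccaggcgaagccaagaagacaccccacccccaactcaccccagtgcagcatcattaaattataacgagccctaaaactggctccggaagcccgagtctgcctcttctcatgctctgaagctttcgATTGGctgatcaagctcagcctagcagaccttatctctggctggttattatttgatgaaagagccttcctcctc
Gpam downstream: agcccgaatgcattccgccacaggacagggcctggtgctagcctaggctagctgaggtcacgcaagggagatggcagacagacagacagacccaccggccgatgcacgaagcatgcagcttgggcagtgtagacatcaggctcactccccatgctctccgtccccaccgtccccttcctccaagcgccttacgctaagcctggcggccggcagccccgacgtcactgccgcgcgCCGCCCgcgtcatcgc
Chka, called lower, at chr19:3851523-3851772 on the plus strand, has 4 matches, of CCAAT and the GC box:
Chka: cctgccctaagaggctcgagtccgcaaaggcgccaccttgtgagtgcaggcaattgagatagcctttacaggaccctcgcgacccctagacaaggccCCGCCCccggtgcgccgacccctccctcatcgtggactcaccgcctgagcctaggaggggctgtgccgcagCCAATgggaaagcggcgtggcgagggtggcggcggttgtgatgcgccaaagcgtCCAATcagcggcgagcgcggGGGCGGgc
Elovl5, called higher, at chr9:77917115-77917364 on the plus strand, has 3 matches, 1 E-box and 2 inverted CCAAT boxes:
Elovl5: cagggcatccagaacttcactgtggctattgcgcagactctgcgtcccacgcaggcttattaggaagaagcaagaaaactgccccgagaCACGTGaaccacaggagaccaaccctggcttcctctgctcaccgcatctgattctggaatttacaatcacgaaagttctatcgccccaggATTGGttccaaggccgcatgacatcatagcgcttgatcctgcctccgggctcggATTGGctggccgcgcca

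Over windows that also take in the 50 bases after the start, 29 of the 35 members had an entry and 6 (Dgat1, Dgat2, Fabp5, Fads1, Scd1 and Scd2) did not. A gene counted as holding a motif if any of its windows did. The sterol element core was found for 2 of the 29 members (6.90%), Acsl1 and Pcyt1a, and for 1.44% of all 27025 genes with an entry. The E-box was found for 3 (10.3%), Elovl5, Lpin2 and Plin2, against 8.09% of all genes. CCAAT was found for 20 (69.0%) against 41.1%, and the GC box for 21 (72.4%) against 38.2%. A gene with more windows has more chances of a match, and the members had 43 windows where all genes had 32851. Per window, the shares were 6.98% against 1.24% for the sterol element core and 6.98% against 7.15% for the E-box. They were 51.2% against 37.4% for CCAAT and 60.5% against 35.7% for the GC box. Of the members called lower after bleomycin, Chka and Gpam hold both CCAAT and a GC box, as do Acly and Lpin2. Lpin1 and Acaca hold none of the 4 motifs in their windows. The only Acaca window lies inside the gene, so the start that GENCODE M21 gives for Acaca was not searched. The matches are descriptions of letters in a window.

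Other lipid genes were taken from 6 lists of 146 genes in all. After ISRIB, 5 of the 117 tested were called by edgeR (4.27%, where 2.20% of all genes were), with a median log2 fold change of 0.014. Leaving out ISRIB 2 and 4, the number called was 3, of which Acacb and Cebpd were among these 5. Hsd17b12, a reductase of the elongation cycle, fell from 99.0 ± 3.04 to 80.1 ± 7.01 CPM (SD, n = 4 each, log2 fold change -0.30 ± 0.063, adjusted p 0.0181). Acacb, the mitochondrial acetyl-CoA carboxylase, fell from 34.8 ± 1.98 to 26.8 ± 2.48 CPM (log2 fold change -0.38 ± 0.081, adjusted p 0.0208). Mgll, the monoglyceride lipase, rose from 75.8 ± 5.82 to 90.7 ± 2.82 CPM (adjusted p 0.0318, called in 9 of 16 alternatives), and of the regulators Foxo1 (0.37 ± 0.075) and Cebpd (0.37 ± 0.086) rose on the log2 scale, Cebpd with overlapping groups and 15% of its exon bases under a gene on the other strand. Hsd17b12 and Acacb were called in 12 of 16 alternatives, Foxo1 in 13 and Cebpd in 11. The lists of other phospholipid synthesis, uptake and oxidation genes held no call among 24, 10 and 25 tested.

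After bleomycin 21 of the 107 tested were called (19.6%), close to the 20.5% of all genes. Of the 107, 18 were called lower and 3 higher, where 9.31% of all genes were called lower and 11.2% higher. The fatty acid uptake and binding list had 5 of 9 lower and none higher. Lpl, lipoprotein lipase, fell from 71.5 ± 8.54 to 26.9 ± 10.6 CPM (SD, n = 4 and 5, log2 fold change -1.41 ± 0.22, adjusted p 0.000219). It also stands on the macrophage and lipofibroblast marker lists, whose sums are given above. Cd36, a fatty acid translocase, fell from 1119 ± 85.1 to 657 ± 219 CPM (adjusted p 0.00649). Mgll fell from 32.1 ± 2.67 to 7.38 ± 3.23 CPM, a log2 fold change of -2.08 ± 0.25 (adjusted p 1.6e-05, edgeR), the reverse of its direction after ISRIB.

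Among 24 regulators tested after bleomycin, 4 fell and none rose. That share is below the 20.5% of all genes called in either direction and above the 9.31% called lower. Insig1, which holds SREBP in the endoplasmic reticulum and is itself an SREBP target, fell from 109 ± 14.5 to 57.2 ± 9.50 CPM (SD, log2 fold change -0.93 ± 0.14, adjusted p 0.00012, edgeR). Mlxipl, which encodes the carbohydrate response factor ChREBP, fell from 11.2 ± 1.96 to 4.63 ± 1.30 CPM (adjusted p 0.00637). Prkaa2, a catalytic subunit of AMP-activated kinase, fell from 41.9 ± 2.04 to 24.4 ± 6.78 CPM (adjusted p 0.00649). In the other fatty acid synthesis genes, Mid1ip1, an activator of acetyl-CoA carboxylase, fell by 0.53 ± 0.12 on the log2 scale (adjusted p 0.00428), although 25.5% of its exon bases overlap genes of the other strand. Degs1 and Hacd3, of sphingolipid desaturation and chain elongation, fell as well, and Hacd3 was called in 7 of 16 alternatives.

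The other phospholipid genes after bleomycin had 3 called in each direction among 24, near the share of all genes. Lpgat1, a lysophospholipid acyltransferase, rose from 47.4 ± 3.01 to 80.1 ± 14.0 CPM (log2 fold change 0.76 ± 0.14, adjusted p 0.000774, edgeR), and Slc44a2, a choline transporter-like protein, rose by 0.47 ± 0.11. Lpcat3, an acyltransferase for polyunsaturated chains, rose by 0.41 ± 0.14 (adjusted p 0.0423), a call kept in 4 of 16 alternatives. Pcyt2 and Etnk1, of phosphatidylethanolamine synthesis, fell by 0.60 ± 0.15 and 0.41 ± 0.13 on the log2 scale (Etnk1 called in 11 of 16 alternatives), and Sgms1, a sphingomyelin synthase, by 0.41 ± 0.11. Of the oxidation genes, Acaa1a and Hsd17b4, both peroxisomal, fell by 0.48 ± 0.15 and 0.34 ± 0.11, out of 24 tested, with calls in 11 and 8 of 16 alternatives. Without bleomycin 1 and 2, the number of other lipid genes called was 16, and Acaa1a, Hsd17b4, Etnk1, Hacd3 and Lpcat3 were not among them.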

How the data were processed

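RNA sequencing measured gene expression in 17 libraries of sorted mouse AT2 cells. The authors deposited raw read counts per gene in 2 tables, 1 a kit. The submitters' processing notes name bcl2fastq 2.19.1, FastQC, Trimmomatic 0.36, STAR 2.6.0, HTSeq 0.11.2 and mm10, without settings or strand option.

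Symbols, positions and merged exon lengths came from GENCODE M21 (GRCm38) by gene ID. Within each kit, genes passing filterByExpr (minimum count 10, minimum total 15) were scaled by TMM and compared between the groups, with no covariate, by edgeR's quasi-likelihood test (edgeR 4.0.16, R 4.3.3, two-sided). Benjamini-Hochberg adjustment ran over every gene tested, and called means an adjusted p under 0.05. The procedure was tested on simulated data. CPM use effective library sizes without a pseudocount, and ± after a log2 fold change is its SE. Low counts limit the precision of low genes.

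Alternatives were DESeq2 1.42.0, limma-voom (limma 3.58.1), DESeq2 size factors in edgeR, no filter, removal of ribosomal-RNA-like and mitochondrial genes, the replicate number as a block, each library left out, and 3 splits added after the data were seen. The members, their roles, the 6 other lipid lists, the 10 marker lists and the alternatives were chosen with earlier results of these data known. Values in every library are given for members called in a comparison, and for Fasn, Acaca, Scd1, Scd2, Srebf1, Lpcat1, Pcyt1a, Chpt1, Fabp5, Plin2 and Pnpla2 in both comparisons. From other lists at most 3 called genes a direction are named, by lowest p. A gene of these lists is not reported here. Promoters are from RefSeq (GRCm38.p6). Protein sequences were not used here.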

Additional observations from a re-analysis of the deposited data

Results flagged for a closer look

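In 6 of 128 groups of members' CPM (4.69%), 1 library lay farther from the rest than Dixon's 95% limit, and chance alone would mark about 1 in 20. Elovl5 was 313.2 CPM in vehicle 4 and 257.3 to 263.4 CPM in the other vehicle libraries. Dgat1 was 14.24 CPM in ISRIB 1 and 10.97 to 11.14 CPM in the other ISRIB libraries. Lpin2 was 315.3 CPM in naive 3 and 400.6 to 413.1 CPM in the other naive libraries, and without naive 3 it remained called lower after bleomycin. Agpat2 was 28.61 CPM in naive 4 and 24.02 to 24.57 CPM in the others. Bleomycin 4 stood out for 2 members, with Me1 at 98.7 CPM against 155.0 to 169.1 CPM and Chkb at 35.58 CPM against 15.33 to 19.64 CPM in the other bleomycin libraries. Without bleomycin 4, Me1 was called higher after bleomycin (log2 fold change 0.44, adjusted p 0.0108, edgeR). Chkb shares 10.5% of its exon bases with a gene on the other strand.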

How the results depend on the processing

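All 8 members called after ISRIB and all 11 called after bleomycin kept their direction under every alternative run. After ISRIB the number called was 10 by DESeq2, 8 by limma-voom, with DESeq2 size factors and without ribosomal-RNA-like and mitochondrial genes, and 12 without a filter, while the genes called in all were 265 in the fit reported, 400 by DESeq2 and 648 without a filter. It was 2 leaving out ISRIB 2 and 4, 14 leaving out ISRIB 1 and 3, and 1 to 9 leaving out each library. The other lipid genes called numbered 8 by DESeq2 and 3 leaving out ISRIB 2 and 4. After bleomycin the number was 13 by DESeq2 (2557 genes in all, against 2304), 12 by limma-voom and without a filter (2202 and 2589 in all), 14 leaving out bleomycin 1 and 2, and 8 to 14 leaving out each library, and the members' median log2 fold change became 0.017 leaving out bleomycin 1 and 2. With the replicate number as a block, 6 members were called after ISRIB (without Acly and Scd2) and 10 after bleomycin (without Acsl5). The labels do not say that a number links libraries. Deviations of same-numbered libraries correlated at -0.109, 0.014, 0.085 and 0.055 in the ISRIB comparison and at -0.039, 0.047, -0.033 and 0.031 in the bleomycin comparison, so the numbers were not taken to pair them, and not every library correlated best with its own number.

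Every change of sign was in a member that was not called, and the cause was not tested. Leaving out ISRIB 2 and 4 gave log2 fold changes of -0.071 for Elovl1, 0.037 for Acsl1, 0.063 for Chka, -0.091 for Agpat2, -0.034 for Elovl5 and 0.088 for Acsl3. Leaving out ISRIB 1 and 3 gave 0.002 for Chkb, -0.082 for Pnpla2, -0.234 for Dgat2 and 0.032 for Acsl4. Leaving out each poly(A) library gave -0.478 to 0.037 for Pemt, -0.048 to 0.082 for Elovl1, -0.069 to 0.009 for Acsl1, -0.046 to 0.013 for Lpcat1, -0.05 to 0.045 for Chkb, -0.111 to 0.037 for Chka, -0.017 to 0.076 for Agpat2, -0.069 to 0.393 for Dgat2, -0.052 to 0.038 for Acsl4, -0.057 to 0.072 for Elovl5 and -0.074 to 0.085 for Acsl3. Leaving out bleomycin 1 and 2 gave 0.088 for Pcyt1a, 0.017 for Pnpla2 and 0.089 for Plin2. Leaving out each total-RNA library gave -0.038 to 0.198 for Scd2, -0.163 to 0.055 for Pnpla2 and -0.298 to 0.008 for Acsl3.

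Depth limits the least abundant members: Pemt had 5 to 21 counts and Dgat2 9 to 36 counts a poly(A) library, with SEs of 0.37 and 0.34 on the log2 scale. Replicates varied more in the total-RNA libraries (21.1% as edgeR's common coefficient) than in the poly(A) libraries (7.66%).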
